A study of Mus musculus with 6 samples.

Results

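The regions described here are all peaks on chromosome 19 of the Onecut3 FLAG ChIP-Seq in mouse embryonic fibroblasts (MEFs). Peaks of the 3 Onecut3-OE FLAG lists were merged wherever they overlapped by at least 1 bp, which gave 2874 regions of the 50844 in the whole series. They came from 1660 of 31600 peaks in replicate 1, 948 of 12856 in replicate 2 and 1504 of 24822 in replicate 3. The series asked where Onecut3 binds DNA, and holds 6 libraries of p53 KO MEFs of strain C57BL/6 from embryos. FLAG-tagged Onecut3 was carried by a retroviral Tet-One system that doxycycline switches on. Onecut3-OE cells had 100 ng/mL doxycycline and gave 3 FLAG, 1 input and 1 IgG library, and control cells had no doxycycline and gave 1 FLAG library. All cells thus lacked p53, and the level of the transgene is set by the drug and not by the cells' own Onecut3 promoter. Neither the control FLAG nor the IgG library was analysed here, so signal that the antibody gives without Onecut3 has not been taken off. Whether the 3 replicates are separate cultures is not said in the sources used here, so their spread may be technical, and by their peak names all 3 lists were called against the same input. RNA was not analysed here, so the fibroblast label was not checked against markers. The number of reads in each library is unknown, and the length of a list also moves with that depth.

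Onecut factors carry a CUT domain beside a homeodomain and bind short sequences with the core ATTGAT. They are best known from liver, pancreas, retina and neurons, where they act in cell fate. Chromosome 19 is the smallest mouse autosome and is rich in genes, with arrays of olfactory receptor, membrane-spanning Ms4a and cytochrome P450 Cyp2c genes lying near dispersed single genes.

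A region with a peak in all 3 lists is called shared below, and the position of a shared region relative to a gene start can be seen in sequence. The promoter windows below run from 250 bases before to 50 bases after a gene start and come from RefSeq on GRCm38.p6, printed along the strand of the gene. Capitals mark ATTGAT or its reverse complement ATCAAT, which do not overlap each other in these windows. Tm7sf2 and Esrra are shown because their windows overlapped the chromosome 19 promoter regions with the highest folds, Slc25a28 because its shared region also covered the start of a non-coding gene on the other strand, and Gm46648 because it held the only other copy of the motif.
Tm7sf2: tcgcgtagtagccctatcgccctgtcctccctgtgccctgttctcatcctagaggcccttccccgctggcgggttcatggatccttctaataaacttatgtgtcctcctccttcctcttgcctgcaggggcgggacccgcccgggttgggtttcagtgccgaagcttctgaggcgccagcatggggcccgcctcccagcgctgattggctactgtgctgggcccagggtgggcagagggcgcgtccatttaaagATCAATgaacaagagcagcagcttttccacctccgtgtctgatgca
Esrra: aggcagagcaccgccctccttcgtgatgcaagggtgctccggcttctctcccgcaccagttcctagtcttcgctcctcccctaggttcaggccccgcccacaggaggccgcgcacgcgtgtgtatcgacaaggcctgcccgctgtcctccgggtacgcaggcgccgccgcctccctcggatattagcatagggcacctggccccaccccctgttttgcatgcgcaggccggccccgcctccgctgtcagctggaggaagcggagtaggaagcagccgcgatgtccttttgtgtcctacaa
Slc25a28: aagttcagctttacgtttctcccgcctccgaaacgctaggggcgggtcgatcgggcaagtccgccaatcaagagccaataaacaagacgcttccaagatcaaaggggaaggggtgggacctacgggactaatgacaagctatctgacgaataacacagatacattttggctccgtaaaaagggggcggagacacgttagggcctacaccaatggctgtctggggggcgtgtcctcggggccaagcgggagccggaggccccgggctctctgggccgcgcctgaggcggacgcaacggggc
Gm46648: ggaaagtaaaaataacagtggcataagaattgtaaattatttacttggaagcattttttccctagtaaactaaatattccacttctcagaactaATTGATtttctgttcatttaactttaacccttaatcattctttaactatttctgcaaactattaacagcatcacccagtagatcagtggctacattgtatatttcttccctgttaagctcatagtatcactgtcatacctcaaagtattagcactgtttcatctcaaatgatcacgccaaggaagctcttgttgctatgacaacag
Tm7sf2, a sterol reductase of cholesterol synthesis, has its window at chr19:6067801-6068100 on the minus strand. The shared region there, on chromosome 19 from 6067557 to 6068110, had folds over the control of 9.92, 11.4 and 10.8 in replicates 1, 2 and 3. Its summits lay 46, 4 and 43 bp downstream of the start, and the copy of the motif began 4 bp downstream of it. The 3 summits at Tm7sf2 thus fell within 50 bases of the start, on the side of the transcribed sequence. An end of the neighbouring gene Vps51, at 6067842, lies in the same region. Vps51 has no window here, and the region cannot be assigned to either gene. Esrra, a nuclear receptor of mitochondrial energy metabolism genes, has its window at chr19:6921759-6922058 on the minus strand and holds no copy of the motif. Its region, from 6921737 to 6922298, had folds of 6.45, 8.83 and 7.28, and the summits lay at -116, -111 and -105 bp from the start, negative values being upstream. Slc25a28, a mitochondrial iron carrier, has its window at chr19:43674832-43675131 on the minus strand, and its region had folds of 5.00, 5.27 and 4.08 with summits at -126, -201 and -190 bp. Gm46648, a long non-coding RNA gene, has its window at chr19:26823616-26823915 on the plus strand, with the motif beginning at -156 bp. The region from 26823246 to 26823829 only reached into that window, since its summits lay at -430, -474 and -476 bp, and its folds were 3.76, 3.62 and 3.82.

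Of 1044 chromosome 19 promoter windows in the table, 25 windows of 23 genes overlapped a shared region, which is 2.39% beside 1.32% of all 32851 windows and 1.28% of those outside chromosome 19. This share moves with the density of shared regions, which was higher on chromosome 19 and is given below. The motif was in 2 of the 25 (8.00%, exact 95% interval 0.984% to 26.0%), beside 7.54% of all windows and 8.52% of those on chromosome 19. On the other chromosomes 115 of 407 windows with a shared region held it (28.3%, exact 95% interval 23.9% to 32.9%), and 7.24% of those without. The intervals overlap, which is no test of the difference, and none was run. They cover counting error only and treat windows as independent, though some share 1 region. CCAAT or its reverse complement ATTGG, looked for after the sequences had been seen, was in 19 of the 25 (76.0%) and in 37.8% of the other chromosome 19 windows. On other chromosomes CCAAT or ATTGG was in 61.9% of windows with a shared region and 37.0% of those without. The 25 windows had a median GC content of 58.7% and a median of 19 CpG, and the other chromosome 19 windows 54.3% and 9. A match to these letters is a description of the window and not a binding site. The table has windows for 593 of 705 protein-coding chromosome 19 genes and none for chromosome 18.

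Most chromosome 19 regions were seen in a single list. Of the 2874, 2018 (70.2%) were in 1 list, 484 (16.8%) in 2 lists and 372 in all 3. The shared ones were 12.9% of chromosome 19 regions, beside 10.1% in the whole series and 10.1% on the other 18 autosomes. Replicate 1 alone gave 922 regions, replicate 3 alone 797 and replicate 2, the shortest list, 299 alone. Pairs without the third list numbered 154 for replicates 1 and 2, 208 for 1 and 3, and 122 for 2 and 3. At the edge of the merging rule, the smallest overlap that joined peaks was 3 bp and the smallest gap that left them apart was 3 bp. Of 1238 joins, 11 rested on less than 50 bp, and 10 gaps were under 50 bp. Regions were 196 to 1133 bp wide, with a median of 412 bp for shared regions, which join several peaks, and 251 bp for the rest.

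Peaks lay more densely on chromosome 19 than on any other autosome in each list. This density is what the regions were chosen for and is given without a test. There were 28.5, 16.3 and 25.8 peaks per Mb in replicates 1, 2 and 3, beside medians of 12.2, 5.15 and 9.89 over the other 18 autosomes. The ratios to those medians were 2.34, 3.16 and 2.61 (mean 2.70 ± 0.420, SD, n = 3 lists). The next densest autosome was chromosome 15 in each list, with 17.7, 7.61 and 14.3 peaks per Mb. Shared regions numbered 6.39 per Mb, beside a median of 2.02 and 3.33 on chromosome 15. Genes do not order the chromosomes in the same way. Chromosome 19 had 12.1 protein-coding genes per Mb beside a median of 7.78, while chromosome 7 had 14.3 and chromosome 11 had 13.5 with fewer peaks per Mb than chromosome 19.

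The strength of single peaks differed from that elsewhere in no constant direction. Median fold on chromosome 19 and on the other autosomes was 3.12 and 3.03 in replicate 1, 3.63 and 3.87 in replicate 2, and 3.18 in both for replicate 3. The mean difference of -0.0501 ± 0.170 (SD, n = 3) changed sign between lists (two-sided exact sign-flip test over the 3 lists, p = 1). Median width was 254, 254 and 260 bp on chromosome 19 and 249, 245 and 249 bp elsewhere, wider in 3 of 3 lists by 8.33 ± 3.06 bp (SD, n = 3; two-sided exact sign-flip test, p = 0.25, the smallest that 3 lists allow). Peaks with a q of at most 0.05 made up 41.1%, 68.9% and 47.8% on chromosome 19 and 33.6%, 71.5% and 48.1% elsewhere (two-sided exact sign-flip test over 3 lists, p = 1). None of these 3 measures could pass 0.05 with 3 lists.

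The excess ran along most of the chromosome. The chromosome was cut into 58 bins of 1 Mb from 3 Mb, the first that held peaks, and the other autosomes into 2336. Peaks per bin, as lowest, median and highest, were 11, 28.5 and 60 in replicate 1, 1, 16 and 35 in replicate 2, and 5, 25 and 49 in replicate 3. The median bin elsewhere held 12, 4 and 9 peaks. Bins above that median numbered 55, 53 and 55 of 58 (94.8%, 91.4% and 94.8%). Above the 90th percentile of bins elsewhere, 22, 10 and 18 peaks, lay 41, 44 and 44 bins (70.7%, 75.9% and 75.9%). Shared regions ran from 0 to 17 per bin with a median of 6, beside a median of 1 elsewhere, and 54 of 58 bins (93.1%) were above it. Only 4 chromosome 19 bins had no shared region, while 28.4% of bins on the other autosomes had none.

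**Figure D1:**
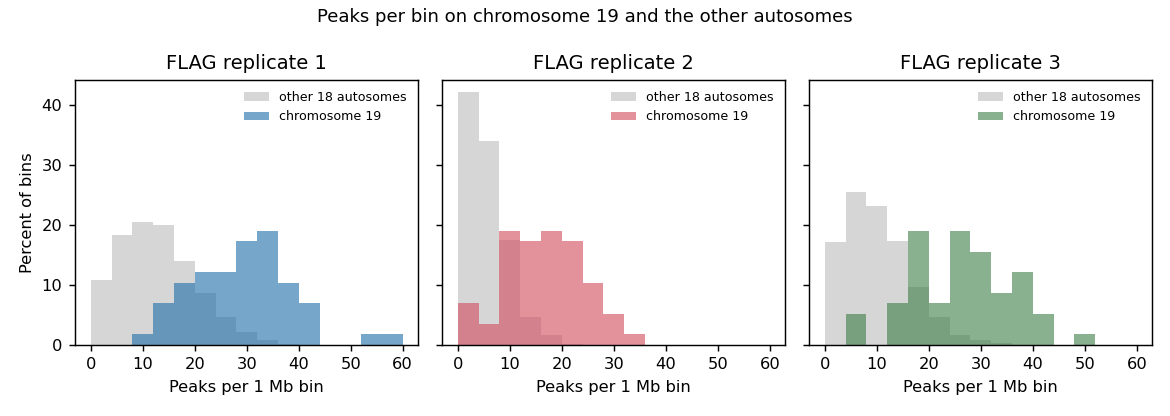
Percent of 1 Mb bins (y axis) by number of peaks per bin (x axis, steps of 4 peaks) in each FLAG replicate, coloured for the 58 chromosome 19 bins and grey for the 2336 bins of the other 18 autosomes. The coloured bins sit to the right in each panel, with medians of 28.5, 16 and 25 peaks against 12, 4 and 9.

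Within this raised level the bins were not equal. The variance of the count per bin was 3.25, 3.58 and 3.48 times its mean in replicates 1, 2 and 3, where independent even placement would give a ratio near 1. By this ratio 10, 15 and 13 of the other 18 autosomes were more even than chromosome 19. Spread beyond counting error, as a coefficient of variation, was 28.2%, 39.9% and 31.0% (mean 33.0% ± 6.12%, SD, n = 3 lists). The corresponding means of the other autosomes ran from 34.9% to 64.5% with a median of 48.3%. Chromosome 19 was thus the most even by this second measure, though its gap to the next autosome was smaller than that SD. In replicate 2 alone, chromosome 10 was more even, at 36.8%. Among peaks with a fold of at least 5, 6 other autosomes were more even than chromosome 19, whose mean was then 58.4%.

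Bins high in one list tended to be high in the others, to a degree near that of other autosomes. The rank correlation over the 58 bins, which neighbour each other and share the control, was 0.787 for replicates 1 and 2, 0.801 for 1 and 3 and 0.795 for 2 and 3, beside medians of 0.758, 0.780 and 0.767 over the other autosomes. Neighbouring bins were little alike, with a correlation of adjacent bins of -0.0796, -0.0524 and 0.0686. This depends on where bins begin, since bins moved by 0.5 Mb gave a mean of 0.324 in place of -0.0212, and bins of 0.5 Mb gave 0.204. Over stretches of 10 Mb, or 8 Mb for the last, the mean density stayed between 20.7 ± 6.10 (from 43 to 53 Mb) and 26.3 ± 6.46 peaks per Mb (from 23 to 33 Mb; SD, n = 3 lists), an SD that holds the difference in length between the lists. Within each list the second stretch was the denser, with 32.5 beside 25.9 peaks per Mb in replicate 1, 19.6 beside 14 in replicate 2 and 26.8 beside 22.3 in replicate 3. These stretches were picked as the highest and lowest and were not tested. In the same stretches genes went from 32.4 per Mb between 3 and 13 Mb to 6 per Mb between 23 and 33 Mb.

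**Figure D2:**
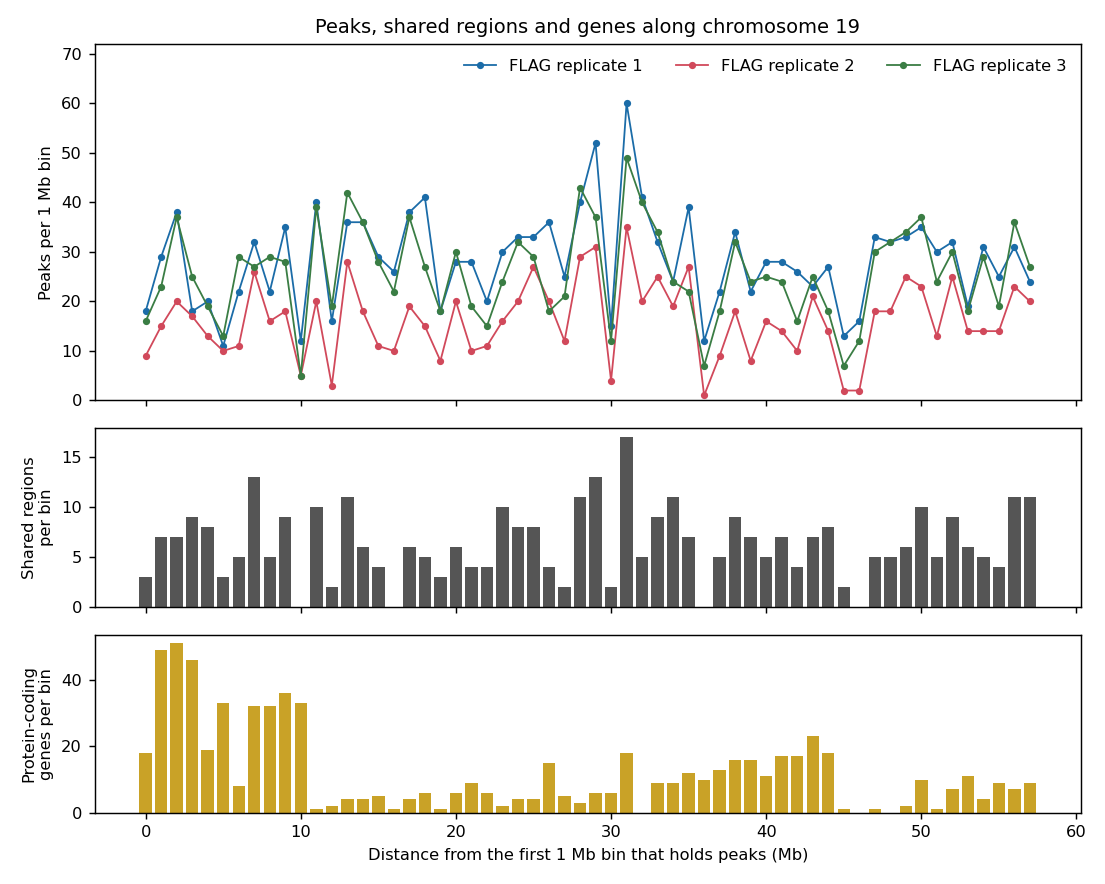
Peaks per 1 Mb bin in each FLAG replicate (top), shared regions per bin (middle) and protein-coding genes per bin (bottom) against distance in Mb from the first bin with peaks. Peaks reach 60, 35 and 49 at a distance of 31 Mb and dip to 12, 1 and 7 at 36 Mb in replicates 1, 2 and 3, while genes crowd into the first 11 bins.

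The poorest bins included gene arrays. The bin from 13 to 14 Mb held 12, 5 and 5 peaks, no shared region and 33 genes, all of them olfactory receptors. The bin from 39 to 40 Mb held 12, 1 and 7 peaks, no shared region and 10 genes, all of the Cyp2c family of cytochrome P450 enzymes. Bins among the lowest 10% in all 3 lists also lay at 33 to 34 Mb (15, 4 and 12 peaks, 6 genes) and, with 1 gene or none, at 48 to 49 Mb (13, 2 and 7) and 49 to 50 Mb (16, 2 and 12). The 6 genes from 33 to 34 Mb were Lipo1, Lipo2, Lipo3, Lipo4, Lipf and Gm8978, so most were neighbours of related name. Low counts were thus seen both in bins of related neighbouring genes and in bins with almost no genes. From 19 to 20 Mb, where the only gene is Rorb, an orphan nuclear receptor of retina and cortex, there were 26, 10 and 22 peaks and no shared region.

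The bins that were richest in all 3 lists lay close together. Bins among the highest 10% in all 3 lists were at 31 to 32 Mb (40, 29 and 43 peaks, 11 shared regions), 32 to 33 Mb (52, 31 and 37, 13 shared) and 34 to 35 Mb (60, 35 and 49, 17 shared), with the poor bin at 33 to 34 Mb between them. Other rich bins lay further off, such as that from 16 to 17 Mb (36, 28 and 42, 11 shared). Over the chromosome, 22.8% of protein-coding genes had a shared region inside or within 3 kb, and over all chromosomes 11.5%. The bins whose genes are named next were picked for having the most shared regions, so high counts of such genes follow from the choice. The bin from 34 to 35 Mb held 18 genes, 9 of them with a shared region inside or within 3 kb. Among these, Pank1, a pantothenate kinase of coenzyme A synthesis, had a region with folds of 5.37, 5.07 and 5.03. Fas, the death receptor, had folds of 2.68, 5.45 and 3.12, and Lipa, the lysosomal acid lipase, 4.08, 3.51 and 3.77. The fold at Fas in replicate 1 was below the median peak of that list, and its highest q over the lists was 0.481. From 32 to 33 Mb, 4 of 6 genes had a shared region, including Atad1, an ATPase that extracts membrane proteins from mitochondria, with 6.30, 4.91 and 5.18. The bin from 10 to 11 Mb had as many shared regions, 13, among 32 genes, of which 8 had one. They included Prpf19, a splicing factor and ubiquitin ligase, with folds of 4.35, 4.19 and 4.84, and Cd5, a lymphocyte surface receptor, with 5.11, 4.05 and 5.42.

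The expected control background also differed on chromosome 19. MACS2 sets a lowest value, a floor, for the background of any peak in a list, and pileup and background could be solved for in replicates 1 and 3. The background was more than 1% above that floor at 72.2% of chromosome 19 peaks in replicate 1 and 77.3% in replicate 3. The shares were 33.8% and 36.5% on chromosome 11, and 37.9% and 42.5% on chromosome 8, the highest of the other autosomes. Its median on chromosome 19 was 1.18 and 1.17 times the floor. The median pileup was 11 fragments on chromosome 19 and 10 on the other autosomes. By bin, the percent above the floor ran from 23.1% to 94.4% in replicate 1 and from 33.3% to 95.8% in replicate 3, with medians of 73.3% and 79.7% beside 30% and 33.3% elsewhere. It passed 50% in 53 and 52 of 58 bins, beside 8.59% and 14.6% of bins with at least 5 peaks elsewhere. Its rank correlation with the number of peaks was 0.299 and 0.239 over the 58 bins. The raised background was thus also seen in most bins, and its part in that number was not tested. Nor was the copy number of the chromosome in these cells.

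**Figure D3:**
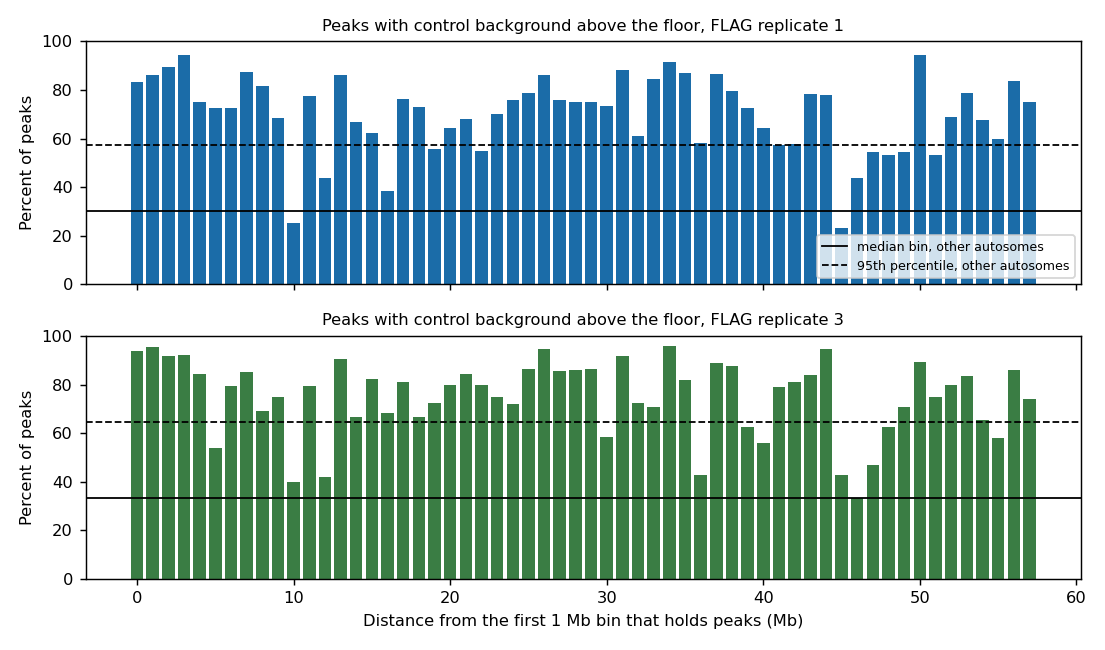
Percent of peaks whose expected control background exceeded the genome-wide floor by more than 1%, per 1 Mb chromosome 19 bin, in FLAG replicates 1 and 3, against distance in Mb from the first bin with peaks. Solid and dashed lines give the median and 95th percentile of bins with at least 5 peaks on the other autosomes. In each replicate 46 of 58 bars lie above the dashed line, at 57.1% and 64.7%.

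Peaks did not follow genes along chromosome 19. The rank correlation of peaks with protein-coding genes per bin was -0.185, 0.0122 and -0.211 in replicates 1, 2 and 3 (mean -0.128 ± 0.122, SD, n = 3 lists, each over 58 neighbouring bins). Pearson's r was -0.123, 0.0225 and -0.118. The corresponding means of the other 18 autosomes ran from 0.00406 to 0.454 with a median of 0.256, all above that of chromosome 19. With only peaks of q at most 0.05 the mean was 0.0897, and it was still below the other 18. Among peaks with a fold of at least 5 it was 0.124, and 1 other autosome lay lower. Shared regions had a rank correlation with genes of 0.199, beside a median of 0.328 elsewhere, and 4 autosomes were lower.

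For peaks, the same was seen when bins were grouped by their number of genes. Bins with 0 to 2 genes held a mean of 21.8 peaks on chromosome 19 (12 bins) and 7.16 on the other autosomes (742 bins), a ratio of 3.04. With 3 to 9 genes the means were 26.0 and 9.89, and with 10 to 19 genes 22.2 and 9.64. With 20 or more they were 21.5 (9 bins) and 9.76 (257 bins), and 12.4 on chromosome 11 (30 bins). In single lists the ratio of means to the other autosomes ran from 1.89 (replicate 1, 20 or more genes) to 3.65 (replicate 2, 0 to 2 genes). For shared regions the means were 4.42, 7.05, 6.67 and 6.67 per bin from the fewest to the most genes, beside 1.23, 2.27, 2.28 and 2.69. Shared regions were thus fewest in the bins with 0 to 2 genes, on chromosome 19 as elsewhere.

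**Figure D4:**
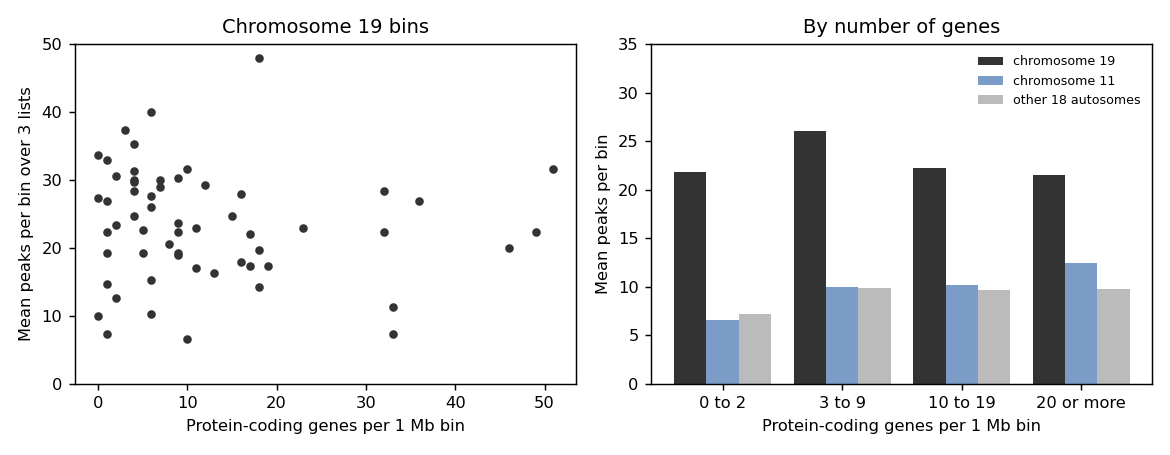
Left, mean peaks over the 3 lists against protein-coding genes for each of the 58 chromosome 19 bins of 1 Mb. Right, mean peaks per bin by gene class for chromosome 19, chromosome 11 and the other 18 autosomes, chromosome 11 included. Black bars stay between 21.5 and 26.0 peaks, while grey bars run from 7.16 to 9.89.

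Folds of shared chromosome 19 regions lay close to those elsewhere. Their median fold was 3.87, 4.19 and 3.99 in replicates 1, 2 and 3, beside 3.94, 4.18 and 4.05 for shared regions of the other autosomes. A q of at most 0.05 in every list was met by 240 of 372 (64.5%, beside 56.5% elsewhere), and a fold of at least 5 in every list by 35 (9.41%, beside 8.91%). By midpoint, 60 (16.1%) lay within 3 kb of the end of a protein-coding gene, 157 (42.2%) deeper inside such a gene and 155 (41.7%) between them. These places take up 11.3%, 41.7% and 47.0% of chromosome 19 sequence. On the other autosomes, gene ends held 18.3% of shared regions and 8.37% of sequence, chromosome 18 being left out of the sequence share.

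The strongest shared region lay between protein-coding genes. Ranked by mean rank of fold, and leaving out both regions nearest to Incenp, it ran from 10496343 to 10496756 with folds of 12.8, 13.5 and 11.6, 3.96 kb beyond the gene Sdhaf2, which encodes an assembly factor of succinate dehydrogenase. The start of Sdhaf2 had a further, weaker region, from 10524951 to 10525291, with folds of 4.08, 3.74 and 3.45, which overlapped the promoter windows of both Sdhaf2 and the neighbouring Cpsf7, a cleavage and polyadenylation factor. The region at Tm7sf2 ranked next. Zfp91, a zinc finger ubiquitin ligase, had the third inside its body, from 12771699 to 12772201, with folds of 7.79, 9.38 and 10.3.

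Slit1, a secreted axon guidance ligand of Robo receptors, held 2 of the 10 strongest regions. The region from 41651650 to 41652346 had folds of 10.5, 8.47 and 7.46, and that from 41654788 to 41655297 had 6.31, 7.72 and 10.5. Stambpl1, a deubiquitinase, had a region from 34195080 to 34195771 with folds of 7.65, 8.69 and 7.36. Its midpoint lay 2.49 kb downstream of the nearest annotated start of that gene, which itself begins further away, at 34190378. Gucy2g, a membrane guanylate cyclase, had 8.41, 7.29 and 7.36 from 55218261 to 55218634.

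Other strong regions lay far from the nearest protein-coding gene. That nearest to Xpnpep1, an aminopeptidase, lay 171 kb away, with folds of 7.27, 6.96 and 7.12. That nearest to Tle4, a Groucho co-repressor, lay 293 kb away, with 5.77, 7.13 and 6.44. That nearest to Smarca2, an ATPase of the SWI/SNF chromatin remodeller, lay 92.3 kb away, with 9.39, 6.18 and 5.75. Among genes with the region inside, Anxa1, a phospholipid-binding annexin, had 7.77, 5.79 and 6.21, Gnaq, a G protein alpha subunit, had 5.82, 5.37 and 7.20, and Rfx3, a transcription factor of ciliated cells, had 5.12, 6.09 and 6.34. Folds are set within a list and are given side by side, not compared between lists.

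**Figure D5:**
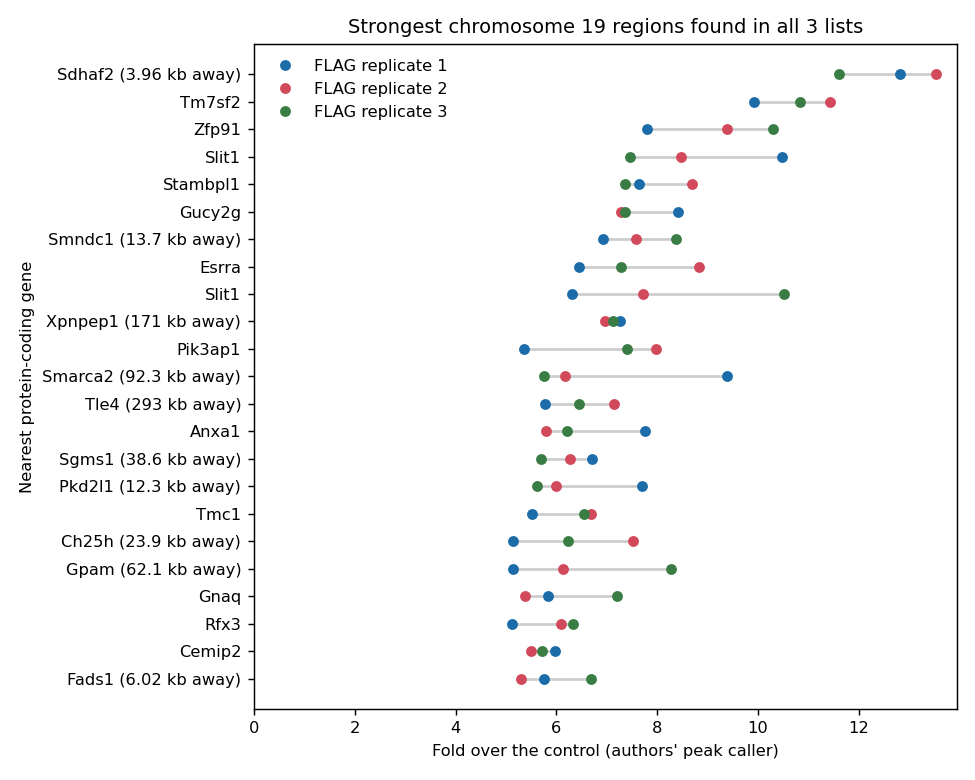
Fold over the control as given by the authors' peak caller (x axis) for the 23 shared chromosome 19 regions of highest mean rank of fold other than those nearest to Incenp, by nearest protein-coding gene (y axis, with distance where the region lies outside it). Points are the 3 FLAG replicates and grey lines their range. Sdhaf2 and Tm7sf2 lead with mean folds of 12.7 and 10.7, and Slit1 appears with 2 regions.

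A shared region reached within 3 kb of an end of 73 of 705 protein-coding chromosome 19 genes (10.4%, beside 5.32% of all 21887 genes and 5.16% outside chromosome 19), and lay inside or within 3 kb of 161 (22.8%, beside 11.5% of all and 11.1% outside chromosome 19). These shares move with the density of shared regions, 6.39 per Mb on chromosome 19 beside a median of 2.02 on the other autosomes. The chromosome was chosen for its peaks, so the shares are given without a test. The genes with a region had a median length of 45.5 kb and those without 11.7 kb, and a longer gene has more room for a region. The highest number was 8 regions, in Prkg1, a cGMP-dependent protein kinase whose gene spans 1201 kb. Its strongest region had folds of 5.08, 5.15 and 4.57. Glis3, a zinc finger transcription factor of pancreatic beta cells, Atrnl1, an attractin-like membrane protein, and Grk5, a kinase of G protein-coupled receptors, had 5 each. Gnaq, Sgms1, a sphingomyelin synthase, Kank1, a regulator of the actin cytoskeleton, and Entpd1, an ectonucleotidase, had 4 each. These genes are 129 to 1201 kb long. The strongest region in Glis3 had folds of 6.22, 5.72 and 4.03.

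Gene groups are described by their number of members with a shared region inside or within 3 kb, beside the 22.8% of chromosome 19 genes. Of 8 homeobox genes, 2 had one. Emx2, of forebrain and urogenital development, had folds of 3.87, 5.30 and 3.55, and Pax2, of kidney and eye development, had 3.33, 3.63 and 4.56. Of 14 other developmental transcription factors and cofactors, 4 had one, namely Rfx3, Glis3, Tcf7l2, the Wnt effector, and Tle4. The region in Tcf7l2 had folds of 3.65, 4.39 and 4.79. At Tle4, besides a region with 3.65, 4.13 and 5.03, another overlapped the promoter window, with 4.25, 4.31 and 2.73. Among 11 developmental signalling genes, 4 had one, namely Slit1, Gfra1, a GDNF family receptor (3.85, 4.63 and 4.05), Btrc, a ubiquitin ligase subunit (3.61, 3.22 and 5.02), and Lrp5, a Wnt co-receptor (2.59, 4.59 and 3.42). The highest q over the lists was 0.0673 at Pax2, 0.258 at the Tle4 promoter window and 0.369 at Lrp5. The 4 other developmental factors with a region are 150 to 421 kb long, beside a median of 21.8 kb for their list. The 4 signalling genes with one are 102 to 220 kb long, beside a median of 20.8 kb.

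Genes of fibroblast matrix and cytoskeleton had the highest share, with 6 of 15 (40%), but a median length of 49.4 kb beside 15.3 kb for all chromosome 19 genes. After Anxa1 came Sh3pxd2a, a scaffold of invasive podosomes, with folds of 5.61, 4.83 and 4.83. Cd248, a surface glycoprotein of stromal cells, had 3.41, 3.79 and 3.60. Of 9 lipid enzymes, 3 had a region, namely the desaturases Scd2 (3.02, 4.44 and 4.66) and Scd3 (4.24, 3.90 and 2.55) and Lipa. Fads1, a fatty acid desaturase, had its nearest strong region 6.02 kb away and was not counted. The highest q over the lists was 0.0662 at Scd2 and 0.943 at Scd3.

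Among 7 genes of mitosis and cohesin, 2 had a region inside. Smc3, a core subunit of cohesin, had folds of 3.36, 5.90 and 3.24, and Kif11, the kinesin that pushes spindle poles apart, had 2.69, 3.33 and 5.30. The highest q was 0.0840 at Smc3 and 0.187 at Kif11, so neither region had a q of at most 0.05 in every list. None of 10 DNA replication and repair genes had one, and these are short, with a median of 7.38 kb. Of 6 stress and signal-driven transcription factors, Esrra alone had one. Of 8 housekeeping genes, Ppp1ca, a phosphatase catalytic subunit (4.01, 4.42 and 6.77), and Sf1, a splicing factor (3.67, 4.06 and 3.22), had one.

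Gene arrays of the chromosome are given separately. Of 63 olfactory receptor genes none had one, with a median length of 0.945 kb, and none of 15 Cyp2c genes, with a median length of 40.2 kb. Of 21 Ms4a genes only Ms4a7, expressed in macrophages, had one (3.97, 3.38 and 2.63), and of 10 Slc22a transporters of organic ions only Slc22a19 (3.63, 4.18 and 3.43). At Ms4a7 the highest q over the lists was 0.0837. Among 6 Ifit genes, which are induced by interferon, Ifit1bl1 (2.85, 4.60 and 3.45) and Ifit3 (3.25, 3.12 and 3.46) had one. Members of an array neighbour each other and resemble each other in sequence, which can lower the number of uniquely placed reads. The sources used here name no read filters, and whether mapping bears on the counts was not tested.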

How the data were processed

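ChIP-Seq peak lists of the 3 Onecut3-OE FLAG libraries were used. MACS2 2.1.0, Bowtie2 2.2.6 and deepTools 3.3.2 are listed in the submitters' notes on processing, as is the build GRCm38, without the role of each. The lists deposited by the authors give each peak's start, end and summit, a score, a fold (the ratio of pileup to expected background, with 1 added to each), a -log10 p-value and a -log10 q-value. Peak names show calling per sample, without pooling, against 1 input. Depth and read filters are named in no source used here. 

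Peaks were merged at an overlap of 1 bp, counted in bins by summit, and regions and genes by midpoint, leaving out the partial last bin. The spread beyond counting error is the square root of the variance less the mean, divided by the mean. Pileup and Poisson background were solved for from fold and p (tolerance 0.001 in -log10 p), which succeeded for 100% of peaks in replicates 1 and 3 and 0.140% of the 12856 peaks in replicate 2, which was left out there. Gene positions, promoter windows and biotypes came from RefSeq tables of GRCm38.p6. No genome was used, so sequence under peaks was not read.

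Named genes are those nearest to the 25 shared regions of highest mean rank of fold apart from Incenp, up to 6 members per gene list with a shared region, genes of the 3 bins with most and the 3 gene-holding bins with fewest shared regions, genes with at least 4 shared regions, and up to 12 promoters by mean fold. The result of 1 gene is not reported here. Gm46648, Malat1 and Neat1 were chosen after their values were seen. The regions, gene lists and rules were chosen with earlier results of these data known. Exact sign-flip tests were run over lists only. Alternatives were other thresholds, overlaps, bins, gene windows and gene sets, and each list left out. The methods were tested on simulated data. Computations used scipy 1.17.1, pandas 2.3.3 and numpy 2.4.6 under Python 3.11.15, with plots from matplotlib 3.10.9.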

Additional observations from a re-analysis of the deposited data

How the results depend on the processing

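Under the alternatives, 52 values stayed within their spread over lists, or counts within 1.5 times, and 44 moved. Requiring a -log10 q of at least 5, a fold of at least 5 or a q of at most 0.05, in that order, left 45, 35 and 240 shared regions, 19.7%, 18.2% and 18.4% of regions shared, 2.12, 1.77 and 11.8 peaks per Mb, 74.7%, 72.4% and 90.2% of bins above the median bin elsewhere, variance ratios of 1.67, 1.61 and 2.75, rank correlations of peaks with genes of 0.173, 0.124 and 0.0897, and 10, 7 and 46 genes with a region near an end. The density ratio was 3.45 at the strictest q. Shared regions and genes correlated at 0.0581 (-log10 q of at least 5) and 0.0454 (fold of at least 5). The share of regions shared was 10.5% at 50% reciprocal overlap and 9.64% with summits within 100 bp. Leaving out each list in turn gave 492 to 580 shared regions and 22.5% to 25.2% shared, since only 2 lists then have to agree, and without replicate 2 the number was 580. Bins of 0.5 Mb, bins of 2 Mb and shifted bins gave variance ratios of 2.39, 3.13 and 2.35 and 91.4%, 100% and 96.5% of bins above the median. Gene ends within 1 kb, within 10 kb or of all annotated genes held 9.68%, 31.7% and 25.8% of shared regions, and 45, 150 and 118 genes had one. Chosen after seeing the data, leaving out the bins 13 to 14 and 39 to 40 Mb gave a variance ratio of 3.04, and leaving out 3 to 13 Mb gave 3.67. The cause of the sign change of the correlation with genes was not tested. No paired analysis was possible because the lists used belong to 1 group, so no groups share replicate numbers, and the sign-flip tests pair chromosomes within a list. The number of reads is unknown, so what depth limits cannot be stated.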

Other observations

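Long non-coding RNA genes of chromosome 19 also held shared regions, 48 of 339 (14.2%) inside or within 3 kb, beside 22.8% of its protein-coding genes and 5.76% of 12388 long non-coding RNA genes outside chromosome 19. Their median length was 6.77 kb and 8.47 kb on and outside the chromosome. These shares, too, move with the density of shared regions, which was higher on chromosome 19. Of 38 miRNA genes, with a median length of 0.0735 kb, none had one, beside 22 of 1190 (1.85%) elsewhere. Malat1, an abundant nuclear RNA, had one (5796741 to 5797321) whose folds, by replicate, were 3.45, 6.76 and 5.98. Its neighbour Neat1, the scaffold of paraspeckles, had a region with 4.08, 4.56 and 3.41. The region inside Zfp91, with 7.79, 9.38 and 10.3, also lies in the overlapping non-coding gene Gm44505 and cannot be assigned to either.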
